A study of Homo sapiens with 12 samples.

Results

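The genes described here code for the subunits of 4 mitochondrial 2-oxoacid dehydrogenase complexes, those for pyruvate, 2-oxoglutarate, 2-oxoadipate and branched-chain ketoacids, which all use the dihydrolipoamide dehydrogenase DLD. The set holds 10 genes named by complex: DLD and the E1 and E2 subunits PDHA1, PDHB, DLAT, OGDH, DLST, DHTKD1, BCKDHA, BCKDHB and DBT. Of these, 7 are among the 8842 genes that the deposited files list, and PDHB, DLAT and DLST are not among them. DLD and DHTKD1 led to the choice of the set because their values were lower after FASRL knockdown, so their knockdown values are given as a description with no test. The 5 other listed genes, called partner subunits here, were selected on their place in a complex.

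Each complex is built from a thiamine-dependent E1 that removes CO2 from a 2-oxoacid, a lipoyl-bearing E2 that carries the remaining acyl group to coenzyme A, and the flavoprotein E3, which is DLD and which reoxidizes the lipoyl arm and passes the electrons to NAD+. The pyruvate complex links glycolysis to the citrate cycle and to the acetyl-CoA used for fatty acid synthesis, the 2-oxoglutarate complex is a step of the cycle itself, and the branched-chain and 2-oxoadipate complexes commit valine, leucine, isoleucine, lysine and tryptophan carbon to breakdown. Since the same E3 serves them all, and DLST serves the 2-oxoglutarate and the 2-oxoadipate complex, the question asked of the data is whether the partner subunits were lower together with DLD and DHTKD1.

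RNA-seq was carried out on HepG2 cells, a human liver tumour line, and LM3 cells, a human hepatocellular carcinoma line, transfected with an siRNA to the long noncoding RNA FASRL (siFASRL) or with a control siRNA (siNC) and harvested after 48 h. The 4 groups, HepG2 siNC, HepG2 siFASRL, LM3 siNC and LM3 siFASRL, had 3 libraries each, 12 in all. Nothing in the labels says that replicates were separate cultures, so p-values measure only the spread between these libraries, which may be technical. FASRL is not among the listed genes, so the knockdown could not be checked in these values.

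Expression values are the authors' normalized RSEM values, FPKM or TPM, both of which are per transcript length, and their sequencing depth is unknown. Per library, the listed values added up to no less than 316534 and no more than 355094. The listing itself was related to the HepG2 comparison: 15 tested genes (0.184%) had a HepG2 log2 difference between -0.20 and -0.04, against 751 (10%) in LM3. Genes with a slight decrease in HepG2 were thus nearly absent, and shares of genes called in HepG2 hold for this listing and not for all genes.

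DLD, the shared E3, lies at chr7:107890970-107931730 on the plus strand (GENCODE v29, GRCh38). In HepG2 its values were 27.0, 26.1 and 27.2 in the siNC libraries and 11.6, 11.8 and 12.9 in the siFASRL libraries, and in LM3 they were 46.8, 44.1 and 41.4 against 22.0, 23.03 and 24.4. The groups did not overlap in either line, and the LM3 siFASRL libraries stood just below the HepG2 siNC libraries. How many of all genes had groups apart was not determined, so such statements, here and below, only describe single genes. Knockdown left 45.4% of the mean siNC value in HepG2 and 52.5% in LM3, log2 differences of -1.08 and -0.90 on the log2(value + 1) scale used throughout, which understates the change of low genes.

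The 3′ part of DLD overlaps LAMB1, a laminin chain gene on the opposite strand, and whether reads were assigned by strand is not given in the sources used here. LAMB1 went from 33.9 ± 1.35 (SD, n = 3) in HepG2 siNC to 43.3 ± 0.939 in HepG2 siFASRL, and from 56.9 ± 0.287 to 58.6 ± 0.701 in LM3. Its values were thus not lower where those of DLD were. What reads of LAMB1 add to the DLD values was not tested.

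The E1 subunit DHTKD1 decarboxylates 2-oxoadipate in lysine and tryptophan breakdown and lies at chr10:12068972-12123225 on the plus strand. Its values were 16.1, 16.1 and 17.7 in HepG2 siNC and 3.68, 3.68 and 3.83 in HepG2 siFASRL. In LM3 they were 18, 18.7 and 17.8 in siNC and 4.67, 5.08 and 4.60 in siFASRL. All siFASRL libraries of both lines lay below all siNC libraries of both lines, at 22.4% and 26.4% of the siNC mean in HepG2 and LM3. The log2 differences were -1.90 and -1.73, the 49th lowest of 8144 tested genes in HepG2 and the 44th lowest of 7483 in LM3.

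OGDH, the E1 of the 2-oxoglutarate complex and the partner closest in function to DHTKD1, lies at chr7:44606572-44709066 on the plus strand. It was measured at 80.1, 92.1 and 90.8 in HepG2 siNC and at 39.3, 38.5 and 39.2 in HepG2 siFASRL. In LM3 the values were 88.1, 99.2 and 101 in siNC and 33.4, 33.9 and 32.3 in siFASRL. No siFASRL library came near a siNC library of either line, and the siFASRL libraries agreed within 1 unit in HepG2. OGDH fell in both lines, with a log2 difference of -1.15 ± 0.065 (SE, adjusted p = 3.32e-07) in HepG2 and -1.50 ± 0.063 (adjusted p = 4.19e-07) in LM3, from the limma fit over all tested genes. It was the 387th lowest gene in HepG2 and the 94th lowest in LM3. Its paralogue OGDHL was near the lower limit of the data, at 1.24 ± 0.3 and 0.327 ± 0.0981 in HepG2 siNC and siFASRL and at 1.13 ± 0.249 and 0.25 ± 0.04 in LM3, and was below the filter for a test within either line.

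**Figure D1:**
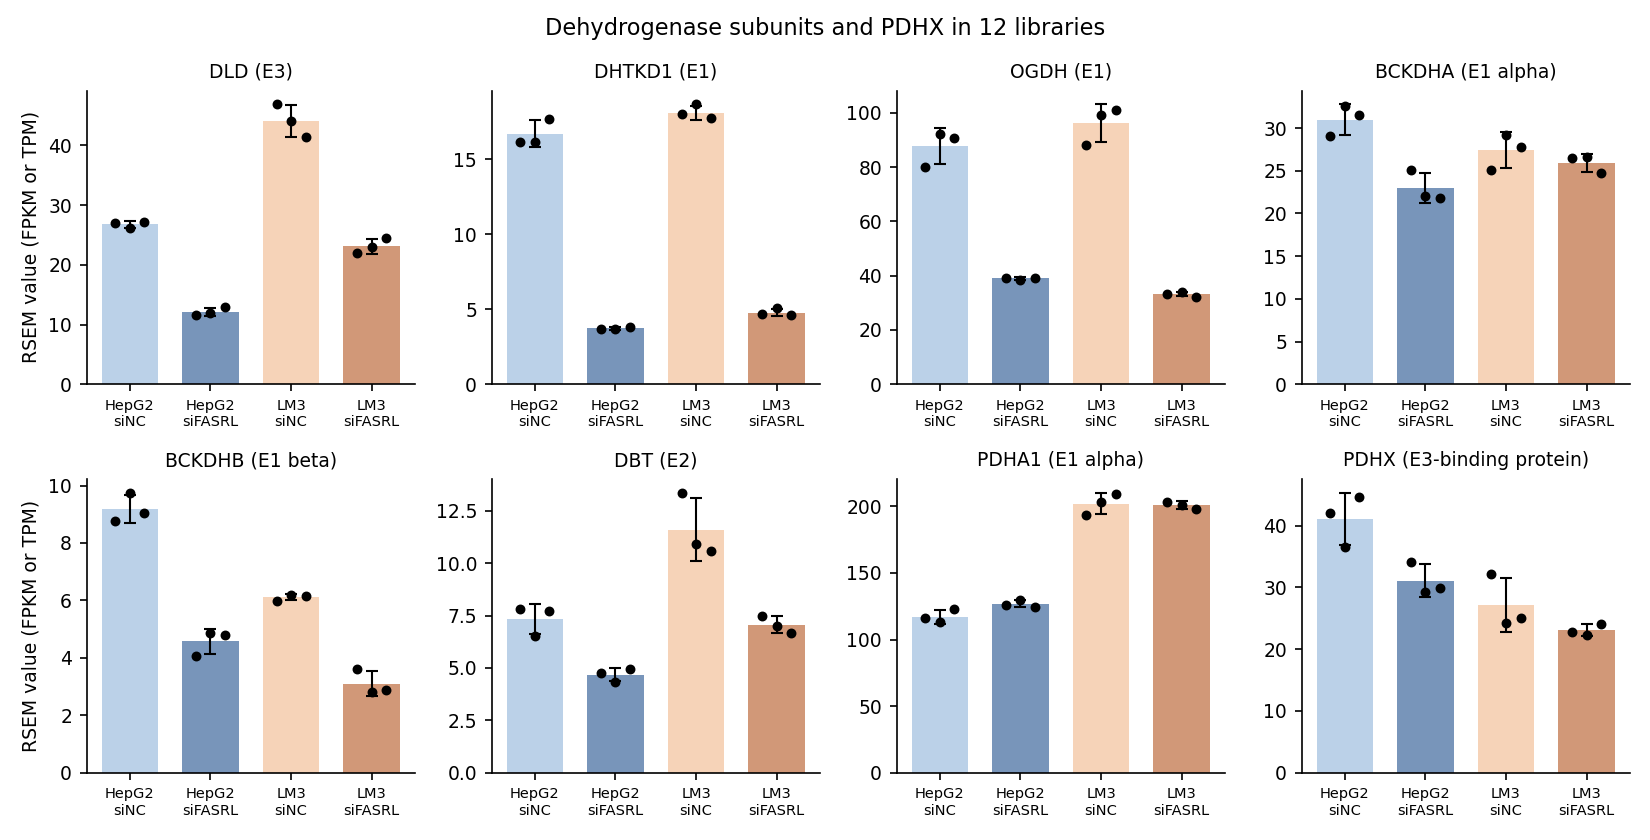
RSEM values of 7 listed subunits and of PDHX in each group, with points for the 3 libraries, bars for the mean and error bars of 1 SD, on linear axes from 0. DLD, DHTKD1, OGDH, BCKDHB and DBT were lower in every siFASRL library than in every siNC library of the same line. PDHX was too, by a small margin. DLD and DHTKD1 were chosen for their lower values, and the share of all genes with groups apart in this way was not determined. The main fits called PDHA1 lower in neither line.

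The branched-chain ketoacid complex is the only 1 of the 4 with each of its subunits listed. BCKDHB, the E1 beta chain (chr6:80106647-80346270, plus strand), was 8.77, 9.74 and 9.04 in HepG2 siNC and 4.05, 4.85 and 4.80 in HepG2 siFASRL. In LM3 it was 5.99, 6.19 and 6.14 in siNC and 3.60, 2.82 and 2.89 in siFASRL. The groups were apart in both lines, and BCKDHB fell by a log2 difference of -0.87 ± 0.072 in HepG2 (adjusted p = 3.1e-06), and the LM3 value was -0.80 ± 0.075 (adjusted p = 2e-05). The siFASRL means were 49.7% and 50.8% of the siNC means.

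DBT, the E2 core of the same complex (chr1:100186919-100249834, minus strand), was 7.80, 6.51 and 7.73 in HepG2 siNC and 4.77, 4.35 and 4.93 in HepG2 siFASRL. In LM3 siNC it was 13.3, 10.9 and 10.6 and in LM3 siFASRL 7.49, 7.02 and 6.68. The groups were again apart within each line, with the first LM3 siNC library above the other two. DBT fell by a log2 difference of -0.55 ± 0.076 (adjusted p = 8.43e-05) in HepG2 and -0.64 ± 0.086 (adjusted p = 0.000167) in LM3, to 63.7% and 60.8% of the siNC means.

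BCKDHA, the E1 alpha chain that pairs with BCKDHB, lies at chr19:41397460-41425005 on the plus strand. It was 29.1, 32.5 and 31.5 in HepG2 siNC and 25.1, 22.0 and 21.9 in HepG2 siFASRL, and 25.1, 29.2 and 27.8 in LM3 siNC and 26.4, 26.6 and 24.7 in LM3 siFASRL. The groups were apart in HepG2 and overlapped in LM3. BCKDHA fell in HepG2 (-0.42 ± 0.071, adjusted p = 0.000338), while its LM3 difference of -0.07 ± 0.067 did not pass (adjusted p = 0.327; 95% interval -0.23 to 0.08). The LM3 value passed without LM3 siNC replicate 1 (-0.13, adjusted p = 0.0362) and had the other sign under median-of-ratios scaling (0.04). The gene overlaps EXOSC5, an exosome subunit gene on the opposite strand, which stood at 17.3 ± 2.03 and 29.2 ± 2.66 in HepG2 siNC and siFASRL and at 19.3 ± 2.6 and 38.0 ± 0.607 in LM3. It also overlaps AC011462.1, a protein-coding gene on the same strand. The part of either gene in the BCKDHA values was not tested.

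Both E1 chains of this complex are needed in equal number in the assembled enzyme, so their ratio within each library is of interest. BCKDHA over BCKDHB was 3.32, 3.34 and 3.48 in HepG2 siNC and 6.19, 4.54 and 4.55 in HepG2 siFASRL, and 4.19, 4.72 and 4.52 in LM3 siNC and 7.35, 9.42 and 8.54 in LM3 siFASRL. The alpha to beta ratio of RNA was therefore higher in every siFASRL library than in every siNC library of its line. DBT over BCKDHB was less far apart, at 0.804 ± 0.119 and 1.03 ± 0.141 in HepG2 and 1.90 ± 0.281 and 2.29 ± 0.205 in LM3. These ratios are descriptions of transcript levels and carry no test.

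PDHA1, the E1 alpha chain of the pyruvate complex and the site at which that complex is switched off by phosphorylation, lies at chrX:19343893-19361705 on the plus strand. It was the most abundant member in each group, at 116, 113 and 123 in HepG2 siNC, 126, 129 and 125 in HepG2 siFASRL, 193, 203 and 209 in LM3 siNC and 203, 201 and 198 in LM3 siFASRL. It overlaps MAP3K15 on the opposite strand, which is not listed. The HepG2 siFASRL libraries lay just above the siNC libraries, and the LM3 groups overlapped. The differences of 0.11 ± 0.057 in HepG2 (adjusted p = 0.0899; 95% interval -0.02 to 0.24) and -0.01 ± 0.051 in LM3 (adjusted p = 0.887; -0.13 to 0.11) did not pass. The HepG2 difference passed as an increase in a joint fit of all 12 libraries (0.11, adjusted p = 0.0474) and after centring on the gap in the HepG2 values (0.23, adjusted p = 0.00337), and was -0.06 after quantile normalization. The LM3 difference passed as a decrease after quantile normalization (-0.15, adjusted p = 0.0252) and was 0.11 under median-of-ratios scaling. The direction for PDHA1 thus depended on the scaling, and no interval or alternative put it near the values of OGDH.

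PDHX, which anchors DLD to the pyruvate complex and was not in the set of 10, was 42.1, 36.5 and 44.7 in HepG2 siNC and 34.1, 29.2 and 29.9 in HepG2 siFASRL, and 32.2, 24.2 and 25.0 in LM3 siNC and 22.8, 22.3 and 24.1 in LM3 siFASRL. The groups were apart by a small margin in both lines. It fell in HepG2 (-0.39 ± 0.087, adjusted p = 0.00185). In LM3 the difference of -0.22 ± 0.10 did not pass (adjusted p = 0.0784), though it did without LM3 siNC replicate 2 (-0.29, adjusted p = 0.0316). PDHX overlaps APIP on the opposite strand, which was 7.65 ± 0.661 and 4.11 ± 0.211 in HepG2 siNC and siFASRL and 14.6 ± 0.45 and 12 ± 0.765 in LM3. The part of APIP in the PDHX values was not tested.

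Counted together, 4 of 5 partner subunits (OGDH, BCKDHA, BCKDHB and DBT) were lower in HepG2 at an adjusted p under 0.05, where 44.3% of the 8144 tested genes were lower and 44.8% higher. In LM3, 3 of 5 (OGDH, BCKDHB and DBT) were lower, where 43.5% of 7483 tested genes were lower and 33.9% higher. No partner was called higher in either line, apart from PDHA1 in HepG2 in the joint and centred fits given above. With a log2 difference of at most -1 required as well, OGDH alone remained among the 5 in each line, beside 6.79% of tested genes in HepG2 and 6.20% in LM3. With this many genes lower among all those tested, the count of lower partners is a description of the set. OGDH was the partner with a change as large as that of DLD in both lines. The median log2 difference over all tested genes was 0.10 in HepG2 and -0.06 in LM3. Median-of-ratios scaling moved the LM3 median to 0.04, and the count of lower partners there stayed at 3. The LM3 split of all tested genes turned with the scaling. It was 3254 lower and 2536 higher in the main fit, and 2769 lower and 3140 higher under median-of-ratios scaling. After quantile normalization 2598 were lower and 2808 higher. The LM3 shares given here and beside the lists below are those of the main fit.

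**Figure D2:**
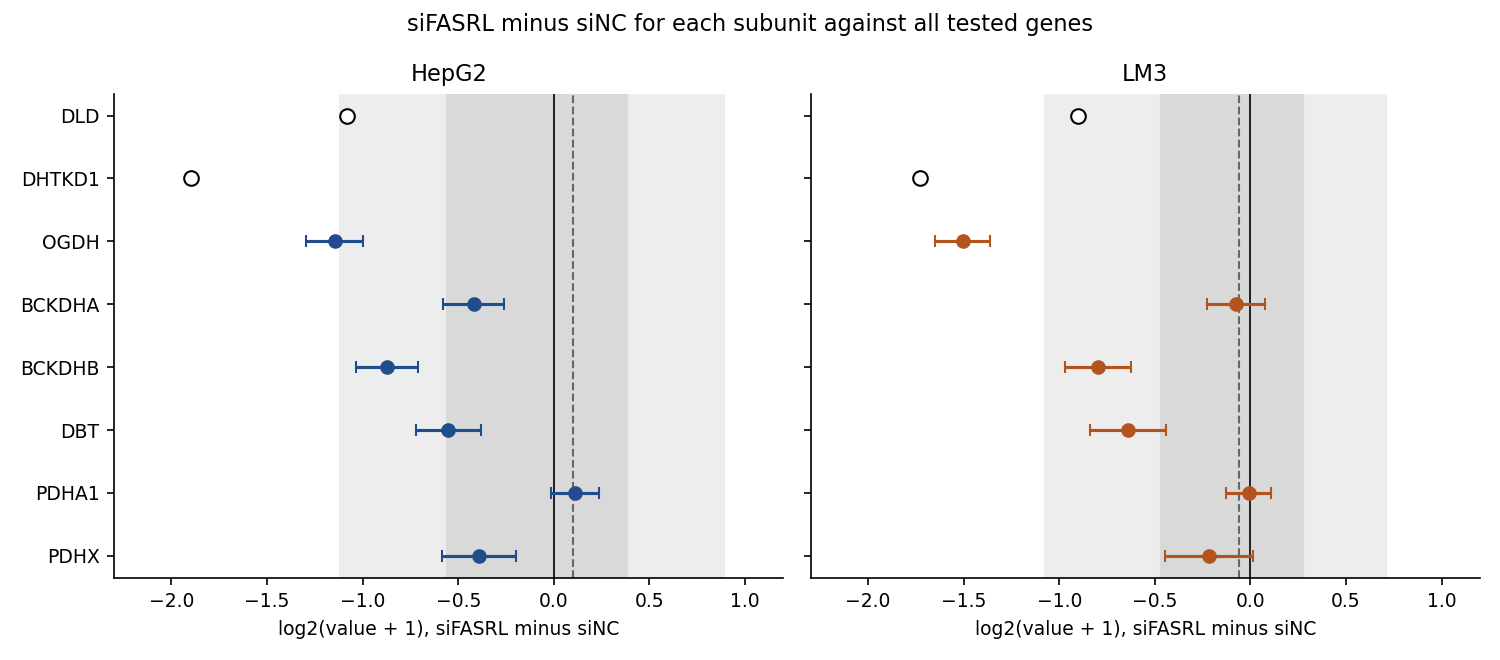
Difference of siFASRL minus siNC in log2(value + 1) for each listed subunit and PDHX in HepG2 and LM3. Filled points carry 95% intervals from limma, open points mark DLD and DHTKD1, which are shown without a test, the dashed line is the median of all tested genes, and dark and light grey hold the middle 50% and 90% of them. OGDH lies outside the light band in both lines, and PDHA1 lies on the median line in HepG2.

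Whether the knockdown effect differed between the lines was tested for the partners as LM3 effect minus HepG2 effect. It differed for 2 of 5, against 46.7% of 8285 tested genes. OGDH had the larger decrease in LM3 (difference -0.36 ± 0.091, adjusted p = 0.00572), and BCKDHA the larger decrease in HepG2 (0.35 ± 0.099, adjusted p = 0.0123). For BCKDHB (0.08 ± 0.108, adjusted p = 0.592), DBT (-0.09 ± 0.122, adjusted p = 0.581) and PDHA1 (-0.12 ± 0.069, adjusted p = 0.178) the difference did not pass. BCKDHB was called as well after quantile normalization (0.35, adjusted p = 0.0113). Of all genes called, 58.3% had the lower effect in LM3, and 47.3% under median-of-ratios scaling.

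The siNC libraries show how the members stood without knockdown. This contrast was not used in choosing them, although it shares the siNC libraries with the knockdown comparisons. Compared with HepG2, LM3 siNC had higher DLD (0.70 ± 0.060, adjusted p = 1.13e-07), PDHA1 (0.78 ± 0.049, adjusted p = 4.43e-09) and DBT (0.59 ± 0.086, adjusted p = 2.38e-05), 3 of 7 members where 41.5% of all tested genes were higher. BCKDHB (-0.52 ± 0.077, adjusted p = 2.83e-05) and BCKDHA (-0.18 ± 0.070, adjusted p = 0.0314) were lower, 2 of 7 where 42.1% were lower. These shares stand for 3442 higher and 3488 lower genes, and quantile normalization gave 4077 higher and 2971 lower. The BCKDHA call was lost without HepG2 siNC replicate 2 (-0.14, adjusted p = 0.106) or 3 (-0.17, adjusted p = 0.0772), without LM3 siNC replicate 1 (-0.12, adjusted p = 0.132), and with a replicate block (-0.24, adjusted p = 0.0713). OGDH (0.13, adjusted p = 0.0729) and DHTKD1 (0.12, adjusted p = 0.0511) did not pass. DHTKD1 passed under 6 alternatives, among them quantile normalization (0.15, adjusted p = 0.0132), and OGDH without LM3 siNC replicate 1 (0.19, adjusted p = 0.0109) or HepG2 siNC replicate 2 (0.17, adjusted p = 0.0421). Within the branched-chain complex the lines thus differed in opposite directions, with more DBT and less BCKDHB in LM3.

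Since the values are per length, levels can be set side by side within a library. In HepG2 siNC the order from high to low was PDHA1, OGDH, BCKDHA, DLD, DHTKD1, BCKDHB and DBT, and BCKDHA and DLD were separated by less than 5 units. In LM3 siNC DLD stood above BCKDHA and DBT above BCKDHB. In HepG2 siFASRL, DBT (4.68 ± 0.3) and BCKDHB (4.57 ± 0.448) did not differ beyond their spread. In both siFASRL groups BCKDHA stood above DLD, and DHTKD1, BCKDHB and DBT took the last places, with DHTKD1 lowest in HepG2 and BCKDHB lowest in LM3. PDHA1 made up 39.7% of the summed member means in HepG2 siNC and 59.3% in HepG2 siFASRL, and 49.8% and 67.4% in LM3.

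Ratios to DLD put the same values in terms of E1 per E3 transcript. PDHA1 over DLD was 4.31, 4.33 and 4.52 in HepG2 siNC and 10.8, 10.9 and 9.63 in HepG2 siFASRL, and 4.13, 4.61 and 5.05 in LM3 siNC and 9.24, 8.74 and 8.10 in LM3 siFASRL. OGDH over DLD overlapped between the HepG2 groups, at 3.28 ± 0.284 and 3.22 ± 0.176 (SD, n = 3), and was 2.19 ± 0.283 in LM3 siNC and 1.44 ± 0.102 in LM3 siFASRL. OGDH over DHTKD1, a ratio of the E1 enzymes that share DLST, was 5.26 ± 0.387 and 10.5 ± 0.221 in HepG2 and 5.30 ± 0.396 and 6.94 ± 0.247 in LM3. DLD and DHTKD1 were chosen for their lower knockdown values, so a partner with no change must give a higher ratio to them, and the ratios are descriptions with no test.

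**Figure D3:**
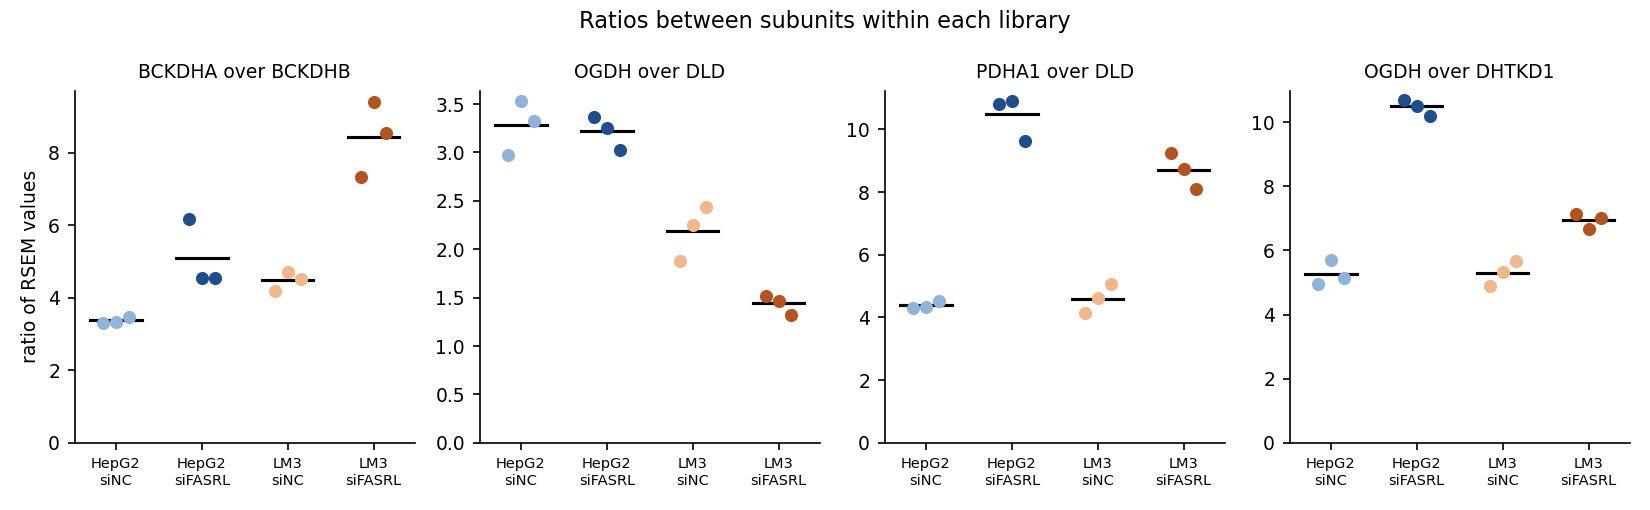
Ratios of RSEM values between subunits within each library, by group, with 1 point per library and a line at the mean of 3. PDHA1 over DLD and BCKDHA over BCKDHB were higher in all siFASRL libraries than in the siNC libraries of their line, and OGDH over DLD overlapped between the HepG2 groups.

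The genes whose values followed each chosen member most closely over the 12 libraries were found by the root mean square distance of log2(value + 1), centred on the gene mean, among 6319 other genes whose mean was 5 or more. For DLD these were CHP1 (0.08), SMARCD3 (0.11), RAB4A (0.11), FAM111B (0.12) and VMA21 (0.12). None of the listed partners was among them, and DBT, at rank 131 with a distance of 0.26, was the nearest of the members. This distance takes in the gap between the lines as well as the knockdown: LM3 siNC minus HepG2 siNC was 0.70 for DLD and 0.59 for DBT, and -0.52 for BCKDHB, which had knockdown differences closer to those of DLD and stood at rank 2174. For DHTKD1 they included SCD (0.13), UHMK1 (0.13), PCYT2 (0.14) and REEP6 (0.14). The nearest member to DHTKD1 was OGDH, at rank 30 with a distance of 0.31. PDHA1 stood at rank 1203 for DLD and 2516 for DHTKD1.

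Promoters are printed for the members that were lower in both lines and have an entry in the RefSeq promoter table (GRCh38.p14), with PDHA1 beside them as a member that the main fits called lower in neither line. The table gives 250 bases before to 50 bases after its own gene start, which among the genes printed is the GENCODE start for DBT alone. Entries were found for 10 of 11 genes, the 10 members and PDHX; OGDH has none. Capitals mark the CCAAT box (CCAAT, or ATTGG on the other strand) and the core of the NRF1 site (GCATGCGC, or GCGCATGC). CACGTG, the E-box, and AAGGTCA, a half-site bound by estrogen-related receptors (TGACCTT on the other strand), were searched on both strands as well and are in none of these sequences. The windows are chr7:107890857-107891156 (plus strand) for DLD, chr10:12068704-12069003 (plus) for DHTKD1, chr6:80106421-80106720 (plus) for BCKDHB, chr1:100249785-100250084 (minus) for DBT and chrX:19343677-19343976 (plus) for PDHA1.
DLD: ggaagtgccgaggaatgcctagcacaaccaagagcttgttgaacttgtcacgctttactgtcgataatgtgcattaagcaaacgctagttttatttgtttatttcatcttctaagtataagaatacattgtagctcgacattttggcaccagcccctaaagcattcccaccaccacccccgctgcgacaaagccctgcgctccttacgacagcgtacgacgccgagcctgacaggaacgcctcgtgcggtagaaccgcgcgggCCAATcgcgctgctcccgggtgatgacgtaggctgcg
DHTKD1: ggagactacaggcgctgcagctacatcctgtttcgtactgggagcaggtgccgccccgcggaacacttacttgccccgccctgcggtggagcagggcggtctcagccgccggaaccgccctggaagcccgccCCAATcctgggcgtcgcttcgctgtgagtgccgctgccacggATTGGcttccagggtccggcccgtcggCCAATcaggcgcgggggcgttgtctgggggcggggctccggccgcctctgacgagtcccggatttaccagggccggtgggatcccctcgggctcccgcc
BCKDHB: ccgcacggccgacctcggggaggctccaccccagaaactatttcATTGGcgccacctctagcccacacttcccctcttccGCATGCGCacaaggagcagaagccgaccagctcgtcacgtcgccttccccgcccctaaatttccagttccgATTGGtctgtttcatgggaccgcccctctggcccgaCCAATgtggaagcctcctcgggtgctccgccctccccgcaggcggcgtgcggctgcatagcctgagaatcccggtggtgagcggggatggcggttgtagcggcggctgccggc
DBT: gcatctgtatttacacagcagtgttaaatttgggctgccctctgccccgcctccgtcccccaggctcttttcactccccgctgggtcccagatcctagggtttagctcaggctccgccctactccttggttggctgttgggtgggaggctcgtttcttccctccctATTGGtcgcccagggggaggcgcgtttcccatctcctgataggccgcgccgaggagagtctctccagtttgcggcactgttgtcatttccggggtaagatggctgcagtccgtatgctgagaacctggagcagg
PDHA1: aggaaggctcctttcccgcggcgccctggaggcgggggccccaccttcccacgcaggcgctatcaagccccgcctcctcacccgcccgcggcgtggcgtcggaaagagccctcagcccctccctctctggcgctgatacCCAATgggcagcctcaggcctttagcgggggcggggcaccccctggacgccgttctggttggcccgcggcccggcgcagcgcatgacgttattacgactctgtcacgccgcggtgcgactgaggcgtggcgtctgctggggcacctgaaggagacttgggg

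DHTKD1 and BCKDHB each hold 3 CCAAT boxes, a number that 3.26% of the 35116 promoters of this length reach, and the promoters of DLD, DBT and PDHA1 hold 1 each, where 34.6% of all promoters hold at least 1. The DLD box lies after the start used by the table, and the promoter of BCKDHA, not printed since BCKDHA passed in HepG2 and not in LM3, also holds 1. Of the other promoters not printed, those of PDHB and PDHX hold 1 each, and those of DLAT and DLST hold none. The NRF1 core occurs once in the BCKDHB promoter and in 3.05% of all promoters, the E-box in 7.26% and the half-site in 3.92%. A match is a description of letters, and no binding was measured. None of the matches overlapped another.

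The pyruvate and branched-chain complexes are switched by dedicated kinases, which inactivate the E1 alpha chain, and by phosphatases, which reactivate it. Of 9 such genes 7 are listed, and of these 4 were lower and 2 higher in HepG2 and 5 lower and 1 higher in LM3, with median log2 differences of -0.62 and -0.60. Over all tested genes the shares were 44.3% lower and 44.8% higher in HepG2 and 43.5% and 33.9% in LM3, and the medians 0.10 and -0.06. The lists that follow are to be read beside the same shares and medians. PDK2 was 16.4 ± 1.63 and 7.70 ± 0.235 in HepG2 siNC and siFASRL (-0.99 ± 0.073, adjusted p = 1.49e-06) and 16.0 ± 1.77 and 6.11 ± 0.374 in LM3 (-1.25 ± 0.082, adjusted p = 3.1e-06). PDK1 (-0.72 in HepG2, -0.68 in LM3), PDK3 (-0.84, -1.27) and the phosphatase regulatory subunit PDPR (-0.62, -0.26) were lower in both lines as well, but the LM3 call of PDPR was lost after quantile normalization (-0.06, adjusted p = 0.3).

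PDK4, a pyruvate dehydrogenase kinase known to be induced by fasting, moved in opposite directions. It was 1.80, 1.79 and 2.10 in HepG2 siNC and 2.56, 2.44 and 2.82 in HepG2 siFASRL, an increase of 0.32 ± 0.067 (adjusted p = 0.00135). In LM3 it was 44.4, 42.2 and 38.5 in siNC and 25.3, 27.8 and 28.2 in siFASRL, a decrease of -0.60 ± 0.069 (adjusted p = 6.8e-05). LM3 minus HepG2, the effects differed by -0.92 ± 0.097 (adjusted p = 7.02e-06), and the level in LM3 siNC was far above that in HepG2. The phosphatase PDP1 rose in HepG2 from 4.37 ± 0.255 to 8.11 ± 0.345 (0.76, adjusted p = 2.25e-06) and in LM3 from 6.20 ± 0.977 to 7.50 ± 0.368 (0.25, adjusted p = 0.0353), a call that was lost with 5 of the 6 LM3 libraries left out in turn, with adjusted p up to 0.12, and with no filter on low values (adjusted p = 0.0742). BCKDK, the branched-chain kinase, did not pass in HepG2 (0.07, adjusted p = 0.469) or LM3 (0.08, adjusted p = 0.451); without HepG2 siNC replicate 2 it passed as an increase in HepG2 (0.18, adjusted p = 0.0181).

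DLD is also the L protein of the glycine cleavage system, of which GLDC and AMT are listed and GCSH is not. GLDC, the glycine decarboxylase, was 9.39, 9.27 and 7.76 in HepG2 siNC and 6.03, 5.74 and 5.83 in HepG2 siFASRL, and AMT, the aminomethyltransferase, 5.73, 6.14 and 5.39 against 2.75, 2.37 and 2.50. Both fell in HepG2, by log2 differences of -0.51 ± 0.073 (adjusted p = 0.000115) and -0.93 ± 0.066 (adjusted p = 1.13e-06). In LM3 neither reached a value of 1 in any library, with highest values of 0.34 and 0.33, so DLD was present there at a higher level than in HepG2 with almost no transcript of GLDC or AMT.

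The E2 subunits work only with lipoate attached. Of 22 genes of lipoate and iron-sulfur cluster synthesis 12 are listed, and 4 were lower and 5 higher in HepG2 and 5 lower and 5 higher in LM3 (medians 0.15 and -0.04), which is near the shares over all tested genes (44.3% and 44.8% in HepG2, 43.5% and 33.9% in LM3). NDUFAB1, the acyl carrier protein on which lipoate is built, fell by -1.16 ± 0.128 (adjusted p = 1.96e-05) in HepG2 and -1.03 ± 0.129 (adjusted p = 0.000113) in LM3, and ISCA2 by -0.80 and -0.81. LIPT1, the transferase that moves lipoate onto the E2 subunits, rose by 0.70 and 0.48, and the ferredoxin FDX2 by 0.67 and 0.55.

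Thiamine, coenzyme A and flavin supply gave a mixed picture too. Of 15 genes 12 are listed, with 6 lower and 5 higher in HepG2 and 3 lower and 3 higher of 11 tested in LM3 (medians -0.06 and -0.02), where 44.3% and 44.8% of all tested genes were lower and higher in HepG2 and 43.5% and 33.9% in LM3. The 3 genes named next are all lower and do not stand for the list, whose higher genes are given by count alone. The coenzyme A carrier SLC25A42 (-0.62 in HepG2, -0.78 in LM3), the pantothenate kinase PANK1 (-0.40, -0.52) and the coenzyme A synthase COASY (-0.48, -0.33) were lower in both lines.

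Around the pyruvate complex, 7 of 11 tested genes of pyruvate supply and use were lower and 3 higher in HepG2, and 6 of 10 lower and 0 higher in LM3 (medians -0.41 and -0.18). With a minimum value of 5, 4 of 8 tested genes were lower in HepG2 and 3 of 7 in LM3, and leaving out each library in turn gave 5 to 7 in HepG2 and 4 to 8 in LM3. All tested genes were 44.3% lower and 44.8% higher in HepG2 and 43.5% and 33.9% in LM3. The mitochondrial pyruvate carrier subunit MPC1 (-0.78 in HepG2, -0.68 in LM3), the lactate and pyruvate transporter SLC16A1 (-1.14, -0.45) and the alanine aminotransferases GPT (-0.61, -1.20) and GPT2 (-0.41, -1.08) were lower in both lines. They do not stand for the list, whose higher genes in HepG2 are given by count alone. Around the 2-oxoglutarate complex, 5 of 11 citrate cycle genes were lower and 3 higher in HepG2, and 6 lower and 1 higher in LM3 (medians 0.06 and -0.15), with the lower genes near those shares in HepG2. IDH2, which makes 2-oxoglutarate, fell by -1.04 ± 0.065 (adjusted p = 5.6e-07) in HepG2 and -1.60 ± 0.085 (adjusted p = 1.18e-06) in LM3, and citrate synthase CS by -1.02 and -0.74. Of the succinate dehydrogenase subunits, SDHC (-0.43, -0.57) was lower, and SDHB (0.61, 0.18) was higher. The LM3 call of SDHB was lost without LM3 siFASRL replicate 2 (adjusted p = 0.0616) or 3 (adjusted p = 0.0511) or LM3 siNC replicate 3 (adjusted p = 0.0582).

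The branched-chain and 2-oxoadipate complexes belong to amino acid breakdown. Beside 44.3% of all tested genes lower and 44.8% higher in HepG2 and 43.5% and 33.9% in LM3, of 14 tested genes of branched-chain breakdown 9 were lower and 5 higher in HepG2, and of 13 tested in LM3 9 were lower and 1 higher (medians -0.46 and -0.41). HIBADH of valine breakdown fell by -0.94 ± 0.061 (adjusted p = 6.93e-07) and -1.07 ± 0.052 (adjusted p = 7.71e-07), the cobalamin adenosyltransferase MMAB by -1.12 and -1.25, the short branched-chain acyl-CoA dehydrogenase ACADSB by -1.10 and -0.53, and the methylmalonyl-CoA epimerase MCEE by -0.80 and -0.49. These genes are all lower and do not stand for the list, whose higher genes are given by count alone. Of the lysine and tryptophan genes, 7 of 10 were lower and 2 higher in HepG2, and 4 of 7 lower and 1 higher in LM3 (medians -0.53 and -0.13). AADAT, which makes the 2-oxoadipate that the DHTKD1 complex uses, fell by -0.60 ± 0.060 (adjusted p = 1.05e-05) in HepG2 and -0.42 ± 0.064 (adjusted p = 0.000373) in LM3. The electron acceptor ETFDH (-0.84, -0.76) and the kynurenine aminotransferase KYAT1 (-0.85, -0.62) were lower in both lines, and ETFB in HepG2 (-0.56, adjusted p = 2.97e-05) while it stood at 0.02 in LM3 (adjusted p = 0.834). The higher lysine and tryptophan genes are likewise given by count alone. After quantile normalization the LM3 calls of AADAT (-0.15, adjusted p = 0.0614), ACADSB (-0.14, adjusted p = 0.0807), MCEE (-0.18, adjusted p = 0.19) and SDHB (0.08, adjusted p = 0.232) were lost.

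**Figure D4:**
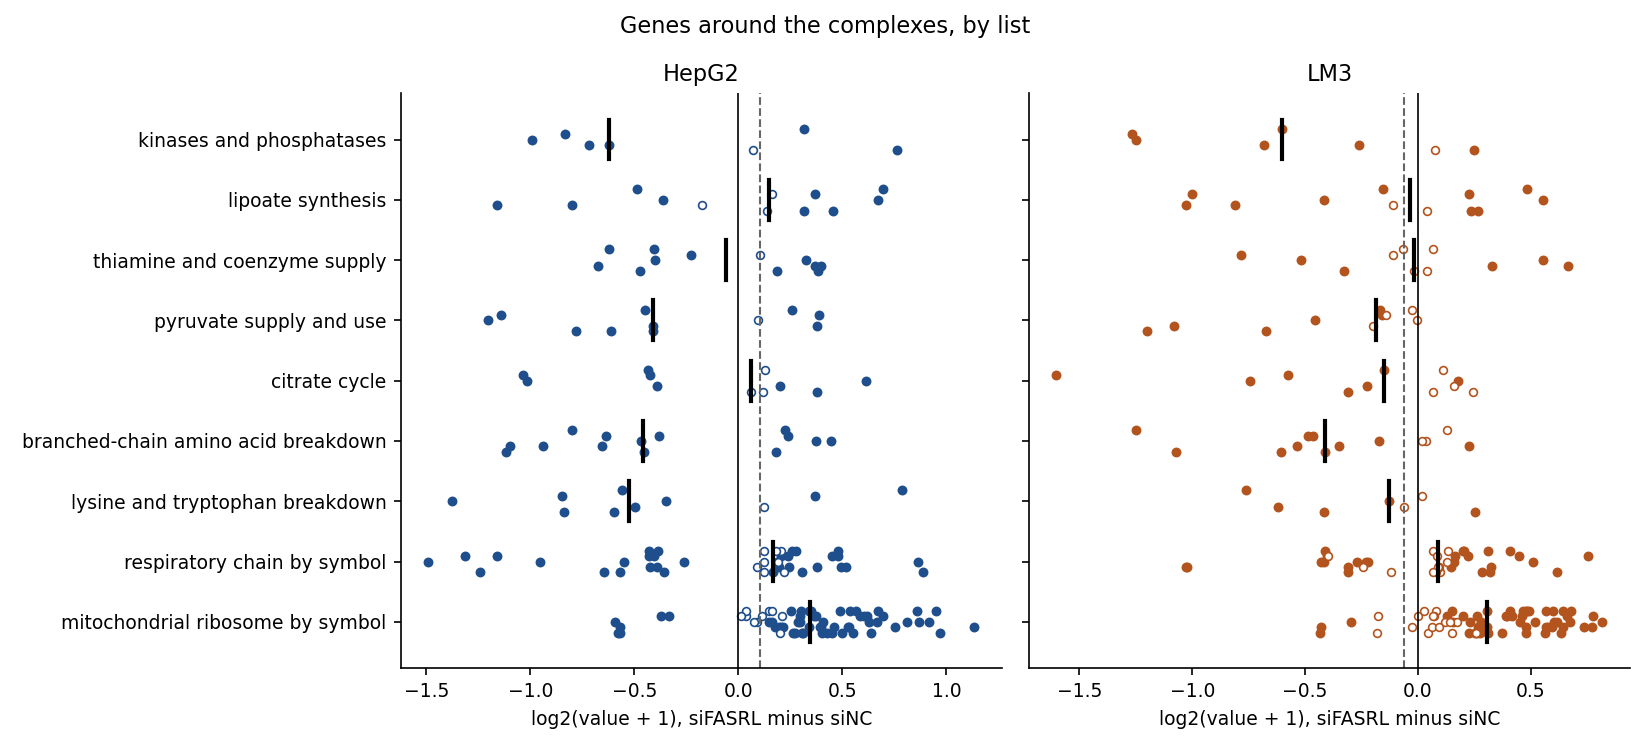
Difference of siFASRL minus siNC in log2(value + 1) for the tested genes of each list, 1 point per gene, filled where the adjusted p was under 0.05. Thick bars are list medians, and the dashed line is the median of all tested genes, 0.10 in HepG2 and -0.06 in LM3. The medians of kinases and phosphatases, pyruvate supply, the citrate cycle, branched-chain breakdown and lysine and tryptophan breakdown lie below that line in both cell lines. Those of lipoate synthesis, the respiratory chain and the mitochondrial ribosome lie above it in both, and that of thiamine and coenzyme supply lies below it in HepG2 and above it in LM3.

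Genes of the respiratory chain were mixed in direction, and most of the mitochondrial ribosome genes were higher. Among 41 tested respiratory chain genes in HepG2 16 were lower and 17 higher, and among 38 in LM3 11 were lower and 15 higher (medians 0.17 and 0.09). Of 66 mitochondrial ribosome genes, 6 were lower and 50 higher in HepG2, and 3 lower and 47 higher in LM3 (medians 0.35 and 0.31). In LM3, leaving out each library in turn gave 9 to 13 lower respiratory chain genes and 3 to 6 lower ribosome genes. Fewer respiratory chain genes were lower there under median-of-ratios scaling, as given at the end. Over all tested genes 44.3% were lower and 44.8% higher in HepG2 and 43.5% and 33.9% in LM3, and the HepG2 counts of the respiratory chain are near these shares. NDUFAB1 is counted both here and among the lipoate genes.

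Levels of cell type markers are given for both lines. Of 12 hepatocyte markers 10 are listed, and their summed values were 4108, 4035 and 3718 in HepG2 siNC and 1836, 1743 and 1790 in HepG2 siFASRL, with SERPINA1 the most abundant and all 10 lower after knockdown. In LM3 siNC the sums were 15.3, 18.5 and 17.7, most of it HNF4A at 14.3 ± 0.0954, and 8 of 10 markers, ALB among them, had a mean under 1, so most defining hepatocyte transcripts were near 0 in LM3. In LM3 siFASRL the sums were 7.73, 8.01 and 6.78. Of 4 epithelial markers 3 are listed, with 2 lower and 0 higher in HepG2 and 2 lower of 2 tested in LM3. The keratin KRT18 lay between 658 and 998 in all libraries. EPCAM was 31.5 and 15.3 on average in HepG2 siNC and siFASRL and 5.37 and 3.87 in LM3, and CDH1 was 7.69 and 1.99 in HepG2 and under 1 in LM3. Of the markers of blood, fibroblast, stellate and endothelial cells 6 of 9 are listed, with sums between 20.6 and 108 and CD68 the most abundant. Of 5 tested in HepG2 2 were lower and 2 higher, and of 2 tested in LM3 1 was lower and 1 higher. COL3A1 went from 31.4 to 10.3, ACTA2 from 10.7 to 17.4 and LYVE1 from 0.487 to 3.48 on average in HepG2, and COL1A1 from 9.95 to 3.01 in LM3. The part of the lower hepatocyte genes in the values of the dehydrogenase subunits was not tested, and fewer cells of a kind and less RNA per cell cannot be told apart.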

How the data were processed

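RNA of 12 libraries was sequenced. The authors filtered the reads with SOAPnuke, mapped them with HISAT2, aligned them to a coding gene set with Bowtie2 and computed gene values with RSEM, and tested with DESeq2. The deposited values are normalized RSEM values with no statement of FPKM or TPM. The submitters' processing notes name hg19, while the files carry GRCh38 chromosome identifiers with rounded positions, so gene positions were taken from GENCODE v29 (GRCh38) and not from the files. In 1 HepG2 siFASRL file, 6 further columns repeat LM3 values and were not used. Symbols turned into dates were restored for 17 genes by gene ID, and 8790 of 8842 IDs were found in the RefSeq table.

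Genes that reached 1 in 3 or more libraries of a fit were tested on log2(value + 1) with limma 3.58.1 (lmFit, eBayes) in R 4.3.3, siFASRL against siNC within each line. The interaction and the siNC contrast came from a fit of all 12 libraries in 4 groups. P-values were adjusted over all tested genes (Benjamini-Hochberg, threshold 0.05). The code of the fits was run on simulated data in which few genes were changed. That run checks the code and not the calls made here, where most tested genes were called within each line. Tables and plots were made with Python 3.11.15, pandas 2.3.3 and matplotlib 3.10.9. The members and the gene lists were chosen with earlier results of these data known. Named genes are the members, all listed genes of the short lists, the 4 genes with the largest mean absolute change over both lines in each longer list, and the 5 genes nearest to DLD and to DHTKD1; LAMB1, EXOSC5 and APIP were named because they overlap a described gene, and some items that the rule names are not reported here. Alternatives covered the pseudocount, the filter, scaling, an intensity trend, a replicate block, a joint fit, centring on the gap in HepG2 values and leaving out each library.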

Additional observations from a re-analysis of the deposited data

Results flagged for a closer look

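The interaction test (LM3 effect minus HepG2 effect, log2) called the genes below among those of the complexes and surrounding pathways that are reported here and tested in both lines. Among the partner subunits these were OGDH (-0.36) and BCKDHA (0.35). Among the regulators of the complexes they were PDK4 (-0.92), PDP1 (-0.52), PDK3 (-0.43) and PDPR (0.36). Among genes of the surrounding pathways they were SLC16A1 (0.69), ETFB (0.58), ACADSB (0.56), GPT2 (-0.67), GPT (-0.59), IDH2 (-0.57) and SDHB (-0.44). PDK4 was the only named gene with called changes of opposite sign in the lines. Genes of the longer lists were named by their mean change over both lines, which ranks genes with opposite changes low. The differences did not pass after quantile normalization for PDK3 (-0.01), GPT2 (-0.18) and IDH2 (-0.20), nor with a pseudocount of 0.1 for GPT (-0.41). The test was also passed by GLDC (0.38, adjusted p = 0.013) and AMT (0.79, adjusted p = 1.45e-05), which were below 1 in all LM3 libraries. With a pseudocount of 0.1 neither passed (-0.03, adjusted p = 0.946, and 0.55, adjusted p = 0.0869).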

How the results depend on the processing

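Over 26 results for single members, 406 of 431 alternative values were classed as unchanged, 13 newly passed and 4 no longer passed. A further 8 were classed as moved and 0 as reversed. Values that passed in neither fit could change sign and still be classed as unchanged. PDHA1 in HepG2 did so after quantile normalization (0.11 and -0.06). In LM3, PDHA1 (-0.01 and 0.11) and BCKDHA (-0.07 and 0.04) did so under median-of-ratios scaling. The count of lower partner subunits stayed at 4 in HepG2 under all alternatives, and was 3 or 4 in LM3. Leaving out each library gave 4 in HepG2, 3 to 4 in LM3, 2 for effects that differed and 5 to 6 for siNC levels. Within each line, deviations of same-numbered libraries correlated at 0.32, 0.37 and -0.20 in HepG2 and at -0.08, 0.12 and -0.17 in LM3. Differently numbered libraries reached 0.30 in HepG2 and 0.19 in LM3. With so few libraries these values do not settle whether replicate numbers pair the libraries. Same-numbered libraries of different lines were not compared in this way. With a replicate block the counts were 4 lower in HepG2, 3 lower in LM3, 2 differing effects and 4 differing siNC levels, BCKDHA being the call that was lost; the block also brought the difference of the MCEE effect between the lines past the threshold (0.31) and changed no other call on a named gene. With a minimum value of 5, which leaves fewer genes to test, 3 thiamine and coenzyme genes were lower in HepG2, and 4 and 3 pyruvate genes in HepG2 and LM3. Median-of-ratios scaling gave 7 lower respiratory chain genes in LM3, and the cause was not tested. Lower mitochondrial ribosome genes in LM3 ranged from 3 to 6, with 6 without LM3 siNC replicate 1. The difference of the GLDC effect between the lines, 0.38 with a pseudocount of 1, was -0.03 with 0.1, since GLDC is below 1 in LM3. The read depth behind low values is unknown.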
